A study of Mus musculus with 8 samples.

Results

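The genes of axon guidance ligands and receptors held 66 of the 9506 peaks in a list of KLF13-associated chromatin, and these 66 peaks belonged to 50 of the 7800 genes with a peak. They were chosen by gene symbol alone: semaphorins, ephrins, Slits and netrins as ligands, and plexins, neuropilins, Eph receptors, Robo receptors, Unc5 receptors and Dcc as receptors. KLF13 is a zinc finger transcription factor of the Krüppel-like family. It was mapped in HT22, an immortalised neuronal line derived from mouse hippocampus, in cells stably making the bacterial biotin ligase BirA and carrying a transfected plasmid, pTO-Klf13Bio, for KLF13 in a form that BirA biotinylates. Chromatin was crosslinked 24 h after transfection and KLF13 was captured on streptavidin, a procedure named ChSP, for chromatin streptavidin precipitation. The series comprises 4 libraries of captured chromatin and 4 of input. All 8 came from cells with BirA and the plasmid, and the inputs differed only in having no precipitation. KLF13 was thus supplied by transfection in every library, and cells without it are not among them. Peaks do not measure expression, so the neuronal character of the line and the expression of the guidance genes were not analysed here.

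Axon guidance proteins steer growth cones by attraction and repulsion, and many also act on dendrites, synapses, blood vessels and migrating cells. Semaphorins signal through plexins, and most secreted class 3 semaphorins also need a neuropilin to hold them. Ephrins are membrane-bound and bind Eph receptor tyrosine kinases on neighbouring cells. Slits repel axons that carry Robo receptors. Netrins attract axons through Dcc and repel them through Unc5 receptors.

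Each peak has a fold of ChSP over input and a p-value, both computed by the authors over all libraries together. No value per library is given, so no fold here carries a replicate error, read depth is unknown, and no comparison between families was tested. Counts and medians are set beside the same measures over all genes or peaks. A promoter peak is a peak that the authors' annotation assigns to a gene and places no more than 1 kb from a transcription start site (TSS). A gene without one may still be occupied below the threshold of the list. Capture on streptavidin without tagged KLF13 was not measured, and its part in any peak was not tested.

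KLF and Sp factors are known to bind GC boxes and CACCC boxes, so the DNA just upstream of guidance genes is shown for promoters over a peak and for promoters of the same families over none. A promoter counted as over a peak where its window of 300 bases, which includes the printed stretch, overlapped a peak in any part. Each such promoter has the highest fold of its family among the windows that could be printed. Each promoter without a peak belongs to a gene with no assigned promoter peak. Among such genes, it was taken as the one of its family with the most GC boxes in its window. The presence of GC boxes there follows from the choice. Each line gives the 150 bases before a TSS in RefSeq, build GRCm38.p6, read 5′ to 3′ on the gene's strand, with every GC box (GGGCGG on either strand) in capitals. Windows whose stretch overlaps an annotated gene were passed over, and no plexin or Robo stretch remained.
Sema5a (semaphorin, over a peak, chr15:32244663-32244812, plus strand): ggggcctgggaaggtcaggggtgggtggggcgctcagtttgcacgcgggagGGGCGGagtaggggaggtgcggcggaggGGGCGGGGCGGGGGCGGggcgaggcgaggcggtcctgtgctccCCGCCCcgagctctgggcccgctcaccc
Efna5 (ephrin, over a peak, chr17:62881318-62881467, minus strand): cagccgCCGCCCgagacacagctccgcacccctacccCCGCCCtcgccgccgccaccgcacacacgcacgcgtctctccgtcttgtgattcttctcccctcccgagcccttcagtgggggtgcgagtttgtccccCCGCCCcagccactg
Slit3 (Slit, over a peak, chr11:35121306-35121455, plus strand): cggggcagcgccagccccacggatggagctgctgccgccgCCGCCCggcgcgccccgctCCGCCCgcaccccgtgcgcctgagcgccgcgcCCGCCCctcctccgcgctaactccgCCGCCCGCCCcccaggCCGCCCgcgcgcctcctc
Ntn4 (netrin, over a peak, chr10:93640899-93641048, plus strand): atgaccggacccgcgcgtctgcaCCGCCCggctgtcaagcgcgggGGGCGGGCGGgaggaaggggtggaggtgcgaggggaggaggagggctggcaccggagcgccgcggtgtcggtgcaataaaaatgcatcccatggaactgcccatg
Nrp2 (neuropilin, over a peak, chr1:62703167-62703316, plus strand): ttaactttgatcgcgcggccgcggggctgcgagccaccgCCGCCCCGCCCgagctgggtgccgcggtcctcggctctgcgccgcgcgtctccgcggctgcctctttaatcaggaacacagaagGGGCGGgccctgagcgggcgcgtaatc
Ephb1 (Eph receptor, over a peak, chr9:102354694-102354843, minus strand): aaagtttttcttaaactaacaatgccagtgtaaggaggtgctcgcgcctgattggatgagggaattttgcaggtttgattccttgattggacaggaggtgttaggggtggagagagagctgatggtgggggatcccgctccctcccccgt
Unc5b (netrin receptor, over a peak, chr10:60831582-60831731, minus strand): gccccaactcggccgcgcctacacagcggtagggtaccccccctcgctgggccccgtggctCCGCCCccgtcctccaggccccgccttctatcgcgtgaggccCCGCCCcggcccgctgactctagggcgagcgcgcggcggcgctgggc
Sema3e (semaphorin, no peak, chr5:14025126-14025275, plus strand): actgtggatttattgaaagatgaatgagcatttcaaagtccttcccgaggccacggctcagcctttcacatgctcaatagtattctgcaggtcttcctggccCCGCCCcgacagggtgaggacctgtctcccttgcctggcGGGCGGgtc
Efna1 (ephrin, no peak, chr3:89280952-89281101, minus strand): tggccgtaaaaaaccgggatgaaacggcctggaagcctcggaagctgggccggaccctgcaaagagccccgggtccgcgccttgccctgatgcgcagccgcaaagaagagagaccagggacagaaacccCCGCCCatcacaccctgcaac
Epha2 (Eph receptor, no peak, chr4:141301071-141301220, plus strand): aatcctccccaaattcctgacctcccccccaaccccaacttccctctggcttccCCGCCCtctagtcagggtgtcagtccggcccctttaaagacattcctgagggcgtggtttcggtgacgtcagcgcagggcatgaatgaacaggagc
The Slit3 stretch had 6 GC boxes (overlapping matches counted) at 85.3% GC, and the Sema5a stretch had 5 at 79.3% GC. Part of the Slit3 stretch, with some of its GC boxes, lies in the gap between the peaks at chr11:35121101-35121300 and chr11:35121401-35121900. Part of the Ephb1 stretch lies outside its peak at chr9:102354101-102354800. Efna5, Ntn4 and Nrp2 had 3 boxes each and Unc5b had 2. Ephb1 had a peak with a fold of 22.1 over its promoter and no GC box in its stretch, which was 51.3% GC and held 1 CACCC match. Among the stretches over no peak, Sema3e had 2 GC boxes, Efna1 had 1, and Epha2 had 1 together with 1 CACGCCC match.

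Most guidance genes had a promoter peak. Of the 70 protein-coding genes of these families, 46 (65.7%) had one, beside 30.9% of all 21900 protein-coding genes. Any assigned peak was found for 50 of the 70 (71.4%), beside 33.6% of all genes. The ligand genes had a promoter peak in 25 of 35 cases (71.4%) and the receptor genes in 21 of 35 (60%). Slits stood at 3 of 3, Unc5 receptors at 4 of 5, plexins at 7 of 9, ephrins at 6 of 8, netrins at 3 of 4, semaphorins at 13 of 20, Eph receptors at 9 of 14 and neuropilins at 1 of 2. Robo receptors stood at 0 of 4 (exact 95% binomial upper limit 60.2%, counting error only), and Dcc had none. The 5 Unc5 genes and the 35 receptor genes include Unc5cl by its symbol, although it is not a netrin receptor. With so few genes in each family, the order of the families is a description.

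**Figure D1:**
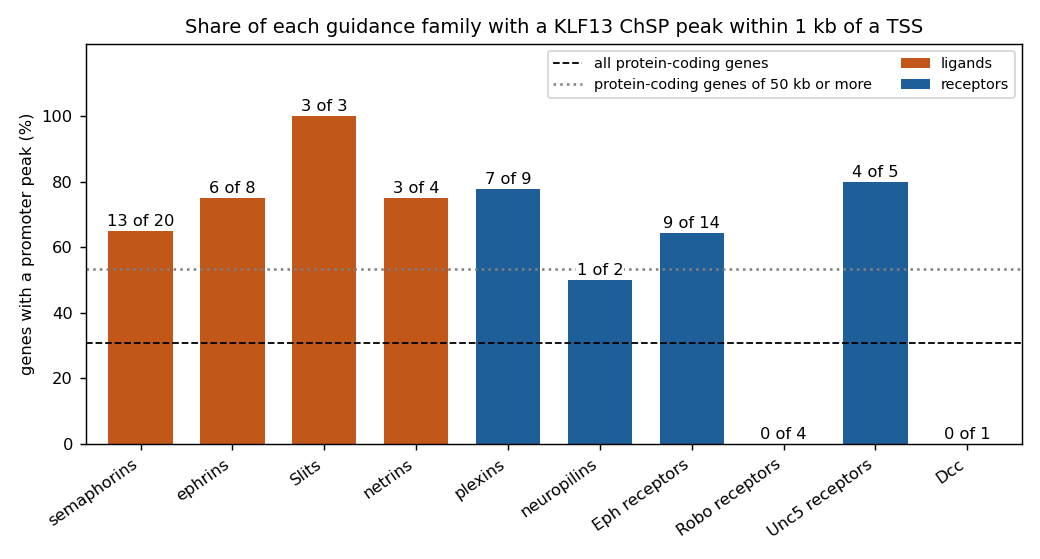
Percentage of the genes of each family with a promoter peak (vertical axis) by family (horizontal axis), with ligand families in orange, receptor families in blue and the number of genes above each bar. The dashed line marks all protein-coding genes (30.9%) and the dotted line those of 50 kb or more (53.2%); Robo receptors and Dcc are at 0 and every other family lies above the dashed line.

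Guidance genes are long, and long genes more often had a promoter peak throughout the genome. The median length was 53.6 kb over the 70 genes and 17.2 kb over all protein-coding genes. Among genes of 50 kb or more, 23 of 35 guidance genes (65.7%) had a promoter peak, beside 53.2% of all such genes. Among shorter genes the count was also 23 of 35, beside 24.4% of all such genes. Over the 70 guidance genes, those with a promoter peak had a median length of 53.6 kb and those without one 60.9 kb, whereas over all genes the medians were 34.6 and 12.3 kb. The families differed: semaphorins with a promoter peak had a median of 29.0 kb and those without 205.8 kb, and for Eph receptors the medians were 154.4 and 36.3 kb. The part of length in the difference between guidance genes and other genes was not tested.

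The semaphorins are mostly repulsive cues. Of the 7 class 3 genes 2 had a promoter peak (28.6%), a share near the 30.9% of all protein-coding genes. These were Sema3f, with a fold of 31.8 (chr9:107709201-107710400, the authors' p = 8.44e-19), and Sema3c, with 29.8. Sema3b had 1 narrow peak of 200 bp at -3.46 kb with a fold of 12.8, and Sema3a, Sema3d, Sema3e and Sema3g had none. Class 3 semaphorins are secreted, whereas the other mouse classes are bound to membranes.

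Membrane-bound semaphorins had promoter peaks at most of their genes, beside 30.9% of all protein-coding genes with one. In class 4 they were found at 5 of 6, with folds of 29.4 at Sema4g, 25.4 at Sema4d, 24.0 at Sema4f, 18.5 at Sema4c and 13.4 at Sema4b, and none at Sema4a. All 4 class 6 genes, whose products bind class A plexins, had one, and their folds were low: 22.8 at Sema6b, 15.1 at Sema6d, 11.03 at Sema6c and 9.50 at Sema6a. Sema6a thereby had the lowest promoter fold among the 46 guidance genes, and 95.4% of all peaks in the list had a higher fold than its peak. Sema7a, which encodes the lipid-anchored semaphorin of class 7, had 28.7, and Sema5b had 13.7. The median over the 13 semaphorin genes was 22.8, beside 22.9 over the 6769 protein-coding genes with a promoter peak.

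The ephrins had promoter peaks at 4 of 5 genes of class A, which are lipid-anchored, and at 2 of 3 of class B, which span the membrane. The share over all protein-coding genes was 30.9%. Efna5 had 2 strong peaks. The peak over its TSS was 1500 bp wide with a fold of 28.9 (chr17:62880501-62882000, the authors' p = 8.00e-19). The second, at -1.28 kb, had a fold of 43.1, the highest of any ligand peak, and 5.73% of the list lay above it. Efna3 had 4 peaks in a row over about its first 3 kb. The peak over the TSS had a fold of 21.8 and the smallest p of the 4 (the authors' p = 2.27e-23), and the other folds were 23.5 at 0.679 kb, 15.2 at 1.68 kb and 27.0 at 2.78 kb downstream. Efna4, on the same chromosome, had 1 peak with a fold of 12.6, and Efna1 had none. Efna2 had folds of 17.7 over the TSS, 9.95 at 0.319 kb and 16.9 in an intergenic peak at 10.9 kb. Efnb2 and Efnb3 had 27.5 and 24.2, and Efnb1 had only an intergenic peak at 80.7 kb with a fold of 19.1.

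All 3 Slit genes had a promoter peak, with modest folds. Slit2 had 21.8 (chr5:47982801-47983300, the authors' p = 7.82e-13), Slit3 had 19.5 over its TSS and 16.3 in a second peak of 200 bp just upstream, and Slit1 had 13.9. The 3 genes are between 149.5 and 587.1 kb long, and no Slit peak lay outside a promoter. Counted by the ends of the RefSeq gene instead of the assigned TSS, 1 of the 3 Slit genes had a peak within 1 kb. By the same count 31.8% of all protein-coding genes had one. The netrin genes Ntn1, Ntn4 and Ntn3 had promoter folds of 18.6, 17.6 and 15.6. Ntn1, the founding axon attractant of the group, also had a fold of 19.9 at 1.23 kb downstream and its highest fold, 23.1, in an intergenic peak at -12.8 kb (chr11:68399601-68400400). Ntn5 had no assigned peak. The highest promoter folds of the Slits and of the netrins were both under the median of 22.9 over all genes.

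The plexins included the highest fold of all guidance peaks. Plxna1 (ENSMUSG00000030084) encodes a receptor for class 3 semaphorins with neuropilins and for class 6 semaphorins directly. It had a fold of 57.4 in a peak 1500 bp wide (chr6:89361501-89363000, the authors' p = 2.93e-19), and only 0.863% of all peaks in the list were higher. An end of another protein-coding gene, Gm40415, lies within 1 kb of this peak. The next plexin, Plxnd1, which binds Sema3e and acts in vessels as well as neurons, had 29.97 in a peak 2000 bp wide, the widest of the 66. Plxnb1 and Plxnb2, receptors for class 4 semaphorins, had 26.2 and 25.4. Plxna4 had 24.0, Plxnc1, a receptor for Sema7a, 22.8, and Plxna3 14.5. Plxna2 and Plxnb3 had none. All 7 plexin peaks overlapped a TSS and none lay elsewhere. Without the widest 5% of peaks in the list, 4 of 9 plexin genes had a promoter peak (44.4%). Under that setting the share was 58.6% of guidance genes and 29.3% of all protein-coding genes. Of the neuropilins, Nrp2 had a fold of 22.7 over its TSS (the authors' p = 6.70e-18) and Nrp1 had no peak.

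The Eph receptors were counted by class, beside 30.9% of all protein-coding genes with a promoter peak. All 5 EphB genes had a promoter peak, with folds of 34.0 at Ephb2, 32.3 at Ephb3, 24.1 at Ephb4, 23.4 at Ephb6 and 22.1 at Ephb1. Of the 9 EphA genes 4 had one: Epha1 with 29.2, Epha7 with 24.1, Epha6 with 16.95 and Epha5 with 12.7. EphA receptors mainly bind class A ephrins and EphB receptors mainly class B ephrins. Epha2 had only an intergenic peak at -9.22 kb with a fold of 20.3, and Epha3, Epha4, Epha8 and Epha10 had no assigned peak. Of the 13 Eph receptor peaks, 4 (30.8%) were among the 4753 of the list (50%) with the smallest p. The Epha5 peak, with the authors' p = 8.27e-06, lay near the limit of the list, whose largest p was 9.99e-06. The EphB folds lay between 22.1 and 34.0, whereas the EphA folds lay between 12.7 and 29.2, so the ranges overlapped. Neither the counts nor the folds were tested between the classes.

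Promoter peaks were found at Unc5 genes, and at neither Dcc nor the Robo genes. Unc5a to Unc5d, the repulsive netrin receptors, all had a promoter peak: Unc5b had 34.99 (chr10:60831001-60831900, the authors' p = 1.40e-20), Unc5a 28.9, Unc5c 22.7 and Unc5d 16.3. Unc5a had 3 peaks, of which an intronic one at 6.39 kb was the highest with 31.5. Unc5cl, which shares the name and intracellular domains but is not a netrin receptor, had none. Dcc had no assigned peak at any distance. None of the 4 Robo genes had a promoter peak, and the only Robo peak was intergenic, at -27.0 kb from Robo3, with a fold of 20.7 (chr9:37460201-37460900, the authors' p = 2.49e-10). Robo1, Robo2 and Dcc are over 1000 kb long, at 1020.0, 1555.5 and 1097.6 kb. All 3 are longer than Epha6, at 969.5 kb the longest guidance gene with a promoter peak. Robo3 and Robo4 are 17.4 and 12.1 kb long. The part of length in these counts was not tested.

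Ligands and receptors had overlapping folds. Taking the highest promoter fold of each gene, the median over the 46 genes was 23.1, with quartiles of 17.1 and 28.4, beside 22.9 with quartiles of 17.1 and 31.1 over all genes with a promoter peak. The medians were 19.5 for the 25 ligand genes and 24.1 for the 21 receptor genes. By family they were 25.8 for Unc5 receptors, 25.4 for plexins, 24.1 for Eph receptors, 23.9 for ephrins, 22.8 for semaphorins, 19.5 for Slits and 17.6 for netrins. Folds ran from 15.6 to 18.6 within the netrins and from 13.9 to 21.8 within the Slits, and more widely in the other families with several promoter peaks. No test over libraries was possible.

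**Figure D2:**
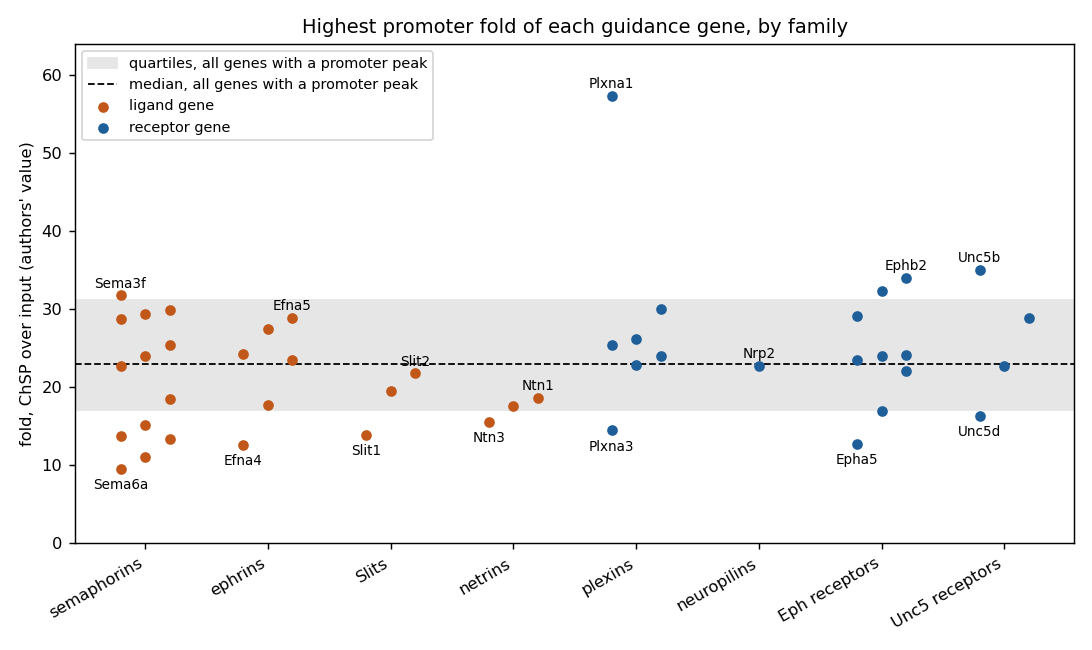
Highest promoter fold of each gene (vertical axis, the authors' ratio of ChSP over input) by family, with 1 point per gene and the highest and lowest gene of each family named. The grey band spans the quartiles (17.1 to 31.1) and the dashed line the median (22.9) over all protein-coding genes with a promoter peak; Plxna1 at 57.4 stands alone above the other 45 genes.

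Guidance peaks lay near TSSs about as often as peaks in general. Of the 66, 51 (77.3%) were within 1 kb of a TSS, beside 79.9% of the list, and 40 overlapped one. The remaining 15 comprised 6 between 1 and 3 kb and 9 beyond 3 kb. The nearest to the 1 kb limit were Efna3 at 0.679 kb inside it and Ntn1 at 1.23 kb outside it. Promoter peaks were centred downstream of the TSS in 37 of 51 cases (72.5%), with a median centre at 136.5 bp, beside 73.9% and 117.5 bp over the list. Peak edges fall on a grid of 100 bp, so these centres are no finer than that. The median width was 700 bp, beside 600 bp over the list.

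Several peaks at 1 gene were seen at 11 of the 50 guidance genes with a peak (22.0%), beside 16.0% of all protein-coding genes with a peak. Some of these peaks lie less than 1 kb apart, as at Slit3 and Efna3, and need not be separate sites. Merging peaks of a gene closer than 1 kb turned the 66 guidance peaks into 58 and the 9506 of the list into 8918. The share of genes with several peaks was not recounted after merging. Besides those above, Sema5b had a second peak at 1.66 kb from another of its TSSs, with a fold of 13.9, and Epha7 a second at 1.87 kb with 17.6. Ephb3 had a peak of 200 bp at an internal TSS, with a fold of 7.75, the lowest of the 66. Ephb2 had an intronic peak with a fold of 15.9, measured at -80.0 kb from the TSS of a shorter transcript. Sema6c had its higher fold away from the promoter: 25.7 in a peak 1600 bp wide that the annotation places in the 3′ UTR, against 11.03 over its TSS. Efna5, Efna3, Ntn1, Unc5a and Sema5b likewise had their highest fold outside the 1 kb window.

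**Figure D3:**
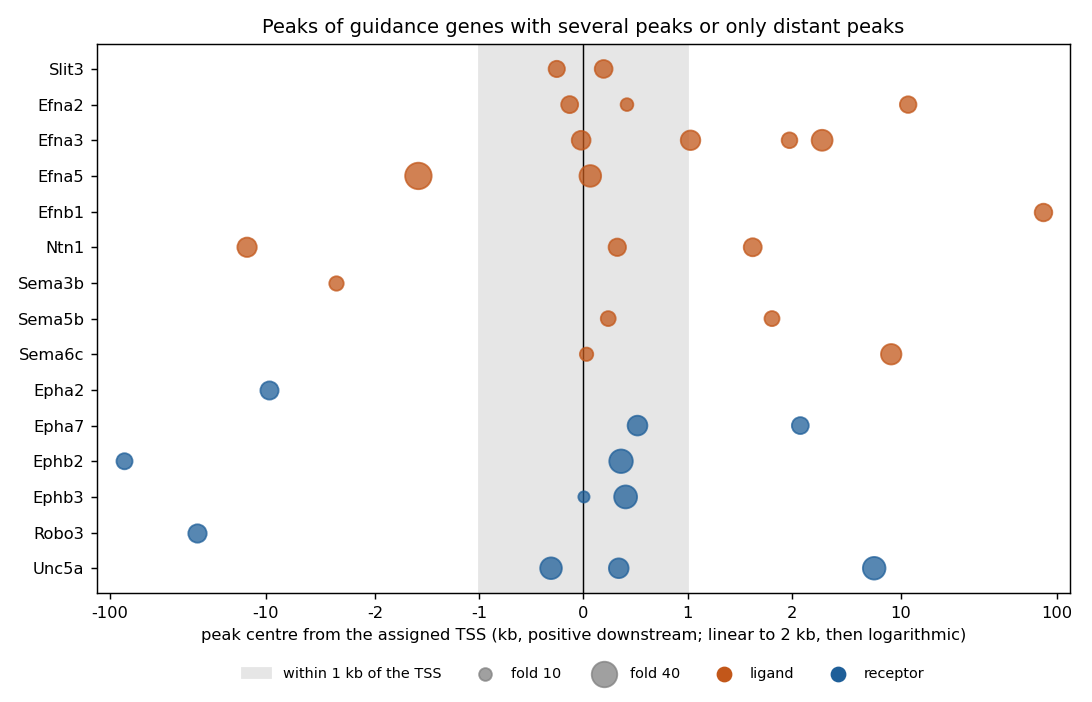
Position of each peak centre relative to the assigned TSS in kb (horizontal axis, linear to 2 kb and logarithmic beyond) for the 15 guidance genes with several peaks or only distant ones (rows), with circle area proportional to fold. Efna3 shows 4 peaks running downstream of its TSS, Efna5 a larger one upstream, and Efnb1, Sema3b, Epha2 and Robo3 only peaks outside the grey 1 kb band.

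The assignment of each peak to 1 gene left some peaks at guidance genes under another name. The clearest was at Sema5a, where a peak with a fold of 32.5 (chr15:32244501-32245200, the authors' p = 2.20e-20) covered the promoter printed above and was assigned to Snhg18, a noncoding RNA gene. Sema5a is therefore counted among the genes without a promoter peak, although this fold exceeds that of every semaphorin. A peak with a fold of 21.1 near the far end of Ntn5 was assigned to Sec1, and 1 with 17.7 inside Epha10 to 1700125G02Rik. Of 2 peaks inside Ntn3 assigned to Tbc1d24, the folds were 22.1 and 20.5, both above the 15.6 of Ntn3 itself. A further peak inside Sema6b, assigned to Lrg1, had 21.0. Conversely, the peaks assigned to Plxna1 and Epha5 lay within 1 kb of an end of another protein-coding gene, Gm40415 and Gm42163 respectively.

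Promoter windows of guidance genes over a peak were rich in GC. RefSeq windows of 300 bases, from 250 before a TSS to 50 after it, were found for 60 of the 70 genes, and some genes had several, giving 76 windows. Of these, 36 overlapped a peak (47.4%), beside 27.0% of the 21263 windows of all protein-coding genes. The median GC content was 69.7% in the 36 and 59.7% in the other 40, beside 68.7% and 52.7% over all windows with and without a peak. The ratio of observed to expected CpG was 0.75 and 0.50 in guidance windows, beside 0.86 and 0.36 over all windows. The lowest GC content over a peak was 48.7%, at Sema4f, and the highest without one was 84.3%, at Epha8. The 2 sets of windows thus overlapped. Some windows without a peak belong to genes that had a promoter peak, among them Ephb3, Epha6, Epha7 and Sema6d. Genes with no window were Slit1, Efnb3, Ntn1, Sema3b, Sema3f, Sema6a, Plxna1, Plxna4, Unc5d and Dcc. All of them but Sema3b and Dcc had a promoter peak, Plxna1 with the highest promoter fold of the guidance genes and Sema6a with the lowest. Shares and medians over windows leave these genes out.

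**Figure D4:**
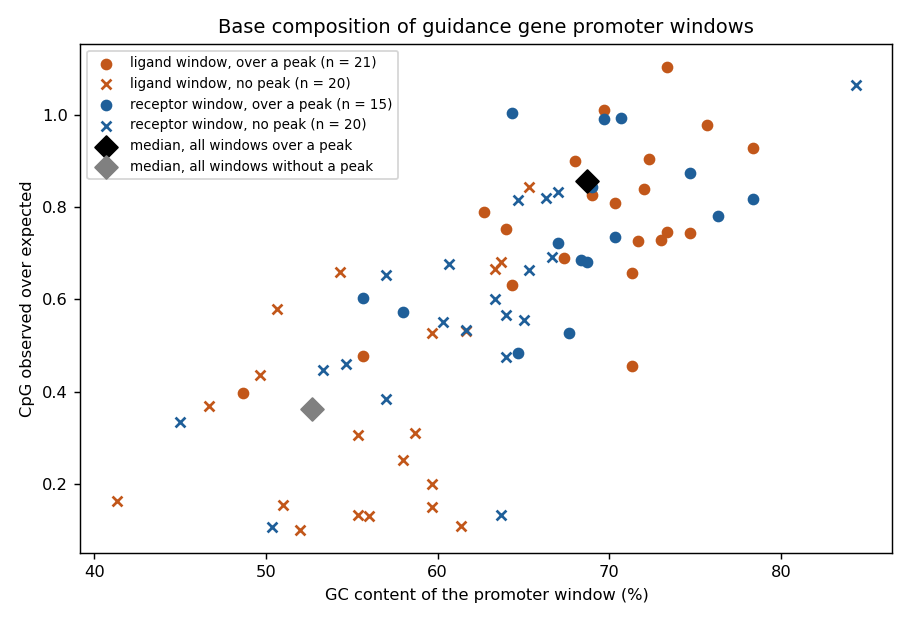
GC content (horizontal axis, %) and ratio of observed to expected CpG (vertical axis) of the 76 guidance promoter windows, with circles for windows over a peak and crosses for windows without one, in orange for ligands and blue for receptors. Diamonds mark the medians over all windows with a peak (68.7% GC) and without one (52.7% GC); circles lie mostly to the upper right, and the cross at 84.3% GC is Epha8.

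The GC box GGGCGG was about as frequent in guidance windows over a peak as in all windows over a peak. The motif, searched on both strands, was in 30 of the 36 guidance windows over a peak (83.3%), beside 82.8% of all windows over a peak and 46.2% of all windows. It was in 24 of the 40 guidance windows without a peak (60%), some of them at genes with a promoter peak, beside 32.6% of all such windows. The longer GGGCGGG, which contains it, was in 77.8% of guidance windows over a peak and 47.5% of those without one, beside 66.0% and 22.0% of all windows over and without a peak and 33.9% of all windows. CACCC was in 83.3% and 75% of guidance windows over and without a peak, beside 68.2% and 56.3% (59.5% of all windows). CACGCCC was in 6 of 36 (16.7%) and 6 of 40 (15.0%), beside 19.4% and 7.77% (10.9% of all windows). Over peaks its share in guidance windows was thus near that of all windows over a peak. These differences were not tested. Peaks lay over windows without a GC box at Efna4, Sema4f, Sema5b, Ephb1, Ephb2 and Unc5c. The Robo windows held few: of the 6 windows of the 4 genes, only that of Robo3 had a GC box. The only Robo1 window (chr16:72662899-72663198) lies inside the gene, which starts at 72027518, so the DNA at that outer start was not examined. Some Robo2 windows also lie inside their gene. A match is a string of letters and not a measured site.

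Other genes of the guidance pathway had promoter peaks at similar shares. Of 36 further ligands, co-receptors and adhesion proteins, 26 (72.2%) had one, beside 30.9% of all protein-coding genes. The highest folds were 50.1 at Gpc1, a heparan sulphate proteoglycan, 47.2 at Neo1, which encodes neogenin, the paralogue of Dcc, and 43.3 at Cdon, a Hedgehog co-receptor. Of 60 cytoplasmic effectors, 44 (73.3%) had one, beside the same 30.9%, with folds of 55.7 at Rock2, a kinase that acts on actomyosin, and 51.3 at Limk1, which phosphorylates cofilin. The median promoter fold was 25.7 for the first list and 30.5 for the effectors, beside 23.1 for the ligands and receptors themselves. Of the effectors 43 of 60 are 50 kb or longer, and 34 of these had a promoter peak (79.1%, beside 53.2% of all such genes).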

How the data were processed

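Peaks of KLF13 ChSP over input were listed once for all 8 libraries, with PePr named in the title of the deposited list (version not given in the sources used here). Per the submitters' processing notes, the build was GRCm38 and the tools included HOMER 4.9.1, BWA 0.7.17-r1188, FastQC 0.11.3 and ChIPseeker 1.16.1, with no roles. The authors' fold is a linear ratio of ChSP over input, whose scaling is not given, and the authors' p-value and adjusted p-value are per peak. The authors' score, proportional to the fold, gave no value here. Widths, distances and gene assignments are deposited values per the file headers. Labels give chromatin sheared to 200 to 600 bp, and do not say that libraries came from separate cultures.

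Symbols were matched by pattern. Denominators came from a RefSeq gene table (GRCm38.p6, 21900 protein-coding genes); all 50 guidance genes with peaks matched it. Unc50, which the pattern for Unc5 also takes, is unrelated, had no peak and was left out. Promoter sequences are RefSeq's. Counting and motif search were tested on simulated data. Where several promoter peaks belong to a gene, the highest fold was used. Named genes were all those with a peak, those without by name only, and the top 3 of each pathway list, of which 1 is not reported here; the peaks assigned to other genes and the genes at the extremes of length or composition were chosen after their values were seen. Members and lists were chosen with earlier results of these data known. Alternatives were 3 kb, any peak, the 4753 peaks with the smallest p, no widest 5%, either gene end, genes of 50 kb or more, named genes only, every promoter peak, mean log2 fold, merged peaks and other motifs. Intervals are exact binomial ones for shares and order-statistic ones for medians. Software was matplotlib 3.10.9, scipy 1.17.1, numpy 2.4.6 and pandas 2.3.3 under Python 3.11.15.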

Additional observations from a re-analysis of the deposited data

How the results depend on the processing

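No paired analysis was possible because each peak carries 1 value computed over all 8 libraries, and for the same reason no library could be left out. A value counted as moved when it left the 95% interval of the reported one, which is wide for families of few genes. For the median folds of Slits, netrins, Unc5 receptors and neuropilins, the full range of folds stood in for that interval. Under the 7 alternatives for promoter peaks, the share of guidance genes ran from 37.1% to 71.4%, above that of all genes in each. Over the 4753 peaks with the smallest p the shares were 37.1% of guidance genes (all genes 18.6%), 40% of ligands, 34.3% of receptors, 35% of semaphorins and 28.6% of Eph receptors, with Unc5 receptors at 2 of 5 and netrins at 1 of 4, by construction of fewer peaks; the median fold was then 25.8 for guidance genes and 28.4 for all genes. With peaks at either gene end, whichever gene they were assigned to, 54.3% of guidance genes, all 4 netrin genes (100%, Ntn5 through its far end), 1 of 3 Slit genes (33.3%) and 31.8% of all genes had one. Among genes of 50 kb or more, the shares were 100% for ephrins (1 of 1) and for netrins (2 of 2), and 53.2% for all genes. Robo receptors were at 0 under every alternative but any assigned peak (1 of 4). The share of all genes was 31.6% at 3 kb, 33.6% with any peak, 29.3% without the widest peaks (plexins then 44.4%, 4 of 9, and netrins 2 of 4) and 33.5% without unnamed gene models. The median fold of all genes was 22.3 over every promoter peak and 22.5 without the widest. Within 3 kb of a TSS lay 86.8% of ligand peaks and 84.1% of the list, and within 1 kb 90.8% of the 4753 with the smallest p and 81.0% of merged peaks. CACGCCC was in 16.7% and 15.0% of guidance windows over and without a peak. The cause of the other changes was not tested. Read depth is unknown and bounds what the list could detect.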
